A study of Homo sapiens with 42 samples.

Results

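The cytoplasmic editing hotspots described here are adenosines at which a cytoplasmic deaminase changed at least 50% of the reads in both of the human cell lines studied. They were chosen by their measured rates with the NES construct: a site had to reach a mean of 50% or more over 2 replicate libraries of poly(A) RNA in HEK293T and again in K562. Of 631357 sites listed with that construct in both lines, 4240 met the rule, or 0.672%, and they carried 2632 different gene labels. Because these NES rates selected the sites, they are given as a description and were not tested.

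The series used TadA-8e, an adenosine deaminase that turns adenosine in RNA into inosine, which sequencing reads as G. It was expressed transiently together with GFP and directed by a signal peptide. NES denotes export to the cytoplasm, NLS import into the nucleus, and ERM anchoring at the membrane of the endoplasmic reticulum. HEK293T is a wild-type human embryonic kidney line that contains the SV40 T antigen and was transfected with lipofectamine, and K562 is a human erythroleukaemia line that was electroporated. GFP-positive cells were sorted, and 2 libraries per group were used for NES, NLS and ERM in HEK293T poly(A) RNA, for NES and NLS in K562 poly(A) RNA, and for NES and NLS in HEK293T RNA depleted of rRNA, along with 10 single HEK293T cells with NES. The tables list sites called by the authors, all with an adjusted p-value of theirs under 0.05 in both replicates, and give a fraction of changed reads for each replicate, without read numbers, so the depth behind a rate is unknown, and a site missing from a table may have been uncovered or uncalled. Nothing in the labels ties replicates to separate cultures, and the spread behind each p-value may therefore be technical. The line labels were checked through the genes that carry listed NES sites: all 12 erythroid markers looked up, including GATA1 and the fetal and embryonic globins, had sites in K562 and none in HEK293T, and 5 of 6 genes taken as HEK293T markers had sites in HEK293T, whereas the remaining one, PAX2, had sites in neither line and LIN28B had sites in both.

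TadA, the bacterial enzyme from which TadA-8e was evolved, naturally deaminates the wobble adenosine in the anticodon of an arginine tRNA, where the base lies unpaired in a hairpin loop after a U. Human ADAR enzymes make the same chemical change, but in double-stranded RNA. TadA-type enzymes are used to mark adenosines that are single-stranded, and the signal sequences place the enzyme in the cytoplasm, in the nucleus or at the surface of the endoplasmic reticulum.

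The bases around hotspots could be read where a site fell in a window from 250 bases before to 50 bases after a RefSeq gene start (GRCh38.p14). With 10 bases on each side required, 3912 of the shared sites and 38 hotspots, in 38 genes, qualified, and all 3912 had A on the listed strand. The following 9 are the hotspots of highest mean NES rate among the 38. The context of hotspots outside these windows was not read. CHCHD3, which held the hotspot of highest mean NES rate in the whole set, is not among the 38. Letters run 5′ to 3′ on the strand of the site, and the capitals mark the edited A, which is the middle capital, with the base on each side of it.
G3BP2, chr4:75673273-75673293, minus strand: ggcgagcaaTAAgaacccgcc
BAG6, chr6:31652448-31652468, minus strand: atccccaaaTACtatcgggga
HACD3, chr15:65530678-65530698, plus strand: accgcgagcTATatctgcgcg
DFFA, chr1:10472512-10472532, minus strand: ggggtcgagTAGaaggaccgc
PANK2, chr20:3889659-3889679, plus strand: ctgggctctTACagcggcccc
KIF9, chr3:47282569-47282589, minus strand: gcgactatgTACacagccagg
PLAA, chr9:26947013-26947033, minus strand: gcaaccaggTACcggctgagc
CCT4, chr2:61888567-61888587, minus strand: taccgttatTACactgcggcc
EEF1B2, chr2:206159755-206159775, plus strand: tgggccattTAAttcagggcc

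All 9 sites have T before the edited A. In BAG6, which encodes a chaperone for proteins on their way to membranes or degradation, the NES rate was 64.4% in HEK293T and 79.9% in K562, and the fold of lowest energy predicted for the 21 bases held a stem of 5 base pairs that closed a loop of 10 bases around the edited A. In EEF1B2, a translation elongation factor subunit, the rates were 63.7% and 69.8%, with 4 base pairs and a loop of 11. In KIF9, a kinesin gene, the rates were 75.4% and 65.4% and no pair was predicted, so the fold was not shared by all 9.

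For contrast, the following are the least edited listed sites of the same windows for 5 of those genes, chosen after their values were seen, at least 11 bases from the hotspot.
G3BP2, chr4:75673221-75673241, minus strand: cgcgcgacgTACccgccgccg
BAG6, chr6:31652499-31652519, minus strand: cacaaaagtAAAgcttgggga
HACD3, chr15:65530640-65530660, plus strand: tcaggtgttGACgccgcatgt
CCT4, chr2:61888480-61888500, minus strand: agaatgtggCACcccggagcg
EEF1B2, chr2:206159915-206159935, plus strand: tggggcgccCACaatttgcgc

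The HEK293T NES rate of these sites was 8.17% in G3BP2, 1.69% in BAG6, 1.98% in HACD3, 0.249% in CCT4 and 3.56% in EEF1B2. In K562 the rates were 7.93%, 1.84%, 3.37%, 0.33% and 5.24% in the same order. In PANK2 the least edited site of the window had 47.3% in HEK293T, so it gave no such contrast and is not shown. The weak site of G3BP2, which encodes a stress granule protein, has the same TAC as 5 of the 9 hotspots. At all the weak sites shown the edited A also lay in a predicted hairpin loop, with loops of 3 to 9 bases, so the loop did not set them apart. Over the 38 hotspots with sequence, T stood before the edited A in 27 (71.1%) and C in 11 (28.9%), whereas A and G stood there in 0. Among all 3912 sites the shares were 40.9% for T, 34.5% for C, 15.3% for G and 9.28% for A. The TAC triplet, searched on the strand of the site with the edited A in the middle, was at 36.8% of the hotspots and 14.3% of all sites, and TACG, the sequence around the wobble adenosine of the bacterial tRNA, was at 1 hotspot, or 2.63%, against 2.38% of all sites. In the fold of lowest energy of the 21 bases, the edited A lay in a hairpin loop at 33 of 38 hotspots (86.8%) and at 70.02% of all sites, and the median folding energy was -4.05 and -2.40 kcal/mol. Among sites with an NES rate under 10% in the lower line, 67.1% had the edited A in a hairpin loop. These are descriptions of sites near gene starts, and the 21 bases are genomic, so a splice junction within them would not be seen.

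The neighbourhood of all 4240 hotspots could be described without a genome from the other adenosines listed on the same strand with NES in HEK293T. An adenosine directly before the site was listed at 0.637% of hotspots and at 6.10% of the shared sites. Directly after the site the shares were 9.15% and 6.76%, and 2 bases after it 21.5% and 17.0%. At all remaining offsets up to 10 bases, hotspots had fewer listed neighbours. The shares were 15.6% against 16.6% at 2 bases before the site, 8.51% against 12.5% at 3 bases after it and 3.73% against 10.1% at 5 bases after it. The listed neighbours of hotspots had higher rates than those of all shared sites: 2 bases after the site the median was 17.9% against 6.91%, and 1 base after it 14.6% against 2.57%. Only listed neighbours enter these shares and medians, and an adenosine not listed may have been uncovered or uncalled. The plot of listed neighbours by offset shows the nearly empty position before the site and the peaks 2 bases to each side.

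**Figure D1:**
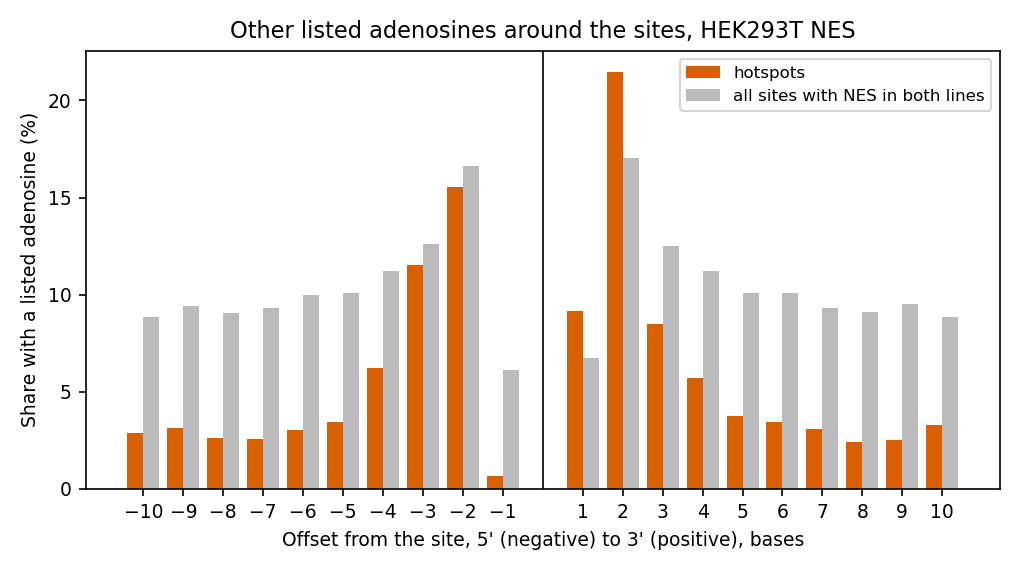
Share of sites (%) with another listed adenosine at each offset in bases from the site, for the 4240 hotspots and for all 631357 sites listed with NES in both lines. At 1 base before the site the share is 0.637% for hotspots and 6.10% for all sites, and at 2 bases after it 21.5% and 17.0%.

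Hotspots were spread over many genes with few in each. Of 2615 single gene symbols, 1646 had 1 hotspot and 57 had 5 or more, and 30 hotspots carried more than 1 symbol. RefSeq classed 2567 of these genes as protein coding, 29 as long noncoding RNA and 18 as transcribed pseudogenes. Between neighbouring hotspots of a gene the median genomic distance was 2922 bases over 1595 pairs, and 59 pairs lay within 10 bases. Of those close pairs 40 were exactly 2 bases apart and 5 were adjacent.

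The gene with most hotspots was ASCC3, a helicase of the complex that rescues stalled ribosomes and repairs alkylated DNA, with 14 over 372198 bases of chromosome 6 (hg38). Its NES means ran from 51.2% to 70.4% in HEK293T and from 52.1% to 84.1% in K562. UBQLN1, a ubiquilin that shuttles proteins to the proteasome, had 9 in 19876 bases of chromosome 9, and SEC24A, a subunit of the COPII coat, had 8 on chromosome 5. ALDH1A2, which makes retinoic acid, also had 8. CLTC, the clathrin heavy chain, HSPA4, an Hsp110 chaperone, NUP98, a nuclear pore protein, and ME1, the malic enzyme, had 7 each. In ME1 these were 10.9% of its 64 shared sites, and in CLTC 0.881% of 795.

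Part of the clusters lay in intervals that RefSeq annotates as pseudogenes. CHCHD3, a protein of mitochondrial cristae, carried 11 hotspots, of which 10 lay between positions 133034731 and 133035895 of chromosome 7, inside the interval of the pseudogene LOC729998, and TXNRD1, thioredoxin reductase, carried 8, of which 7 lay inside RPL18AP3. In all, 85 hotspots (2.00%) lay in pseudogene intervals, against 0.511% of the shared sites. The share rose with the threshold, to 43 of 1279 sites at 60%, 21 of 245 at 70% and 9 of 28 at 80%. The table of intervals gives no strand, and reads of near-identical copies can be placed at the wrong one, so the gene of these sites is uncertain. The part of read placement in their rates was not tested.

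The 12 hotspots of highest mean NES rate, at most 1 a gene, averaged 86.0% to 97.1% over the 4 NES libraries. CHCHD3 led with 95.3% and 97.3% in HEK293T and 97.8% and 98.0% in K562. It was followed by SENP7 (94.5%), RPSAP58 (90.8%), AMBRA1 (89.5%) and RPL13AP5 (89.4%), and all of these but RPSAP58, which RefSeq lists as RPSA2, lie in pseudogene intervals. RPSA2 is a near copy of the ribosomal protein gene RPSA, so its gene is uncertain too. ST20-AS1, C4orf33, INTS12, SBDSP1, PEA15, AEN and BRF2 completed the 12, and SBDSP1 is itself a pseudogene. INTS12, a subunit of the Integrator complex, had 75.6% and 88.1% in HEK293T and 93.8% and 90.2% in K562 at position 105692105 of chromosome 4. PEA15, a death-effector-domain protein, had 80.9% and 83.6% in HEK293T and 89.6% and 90.6% in K562 at position 160214910 of chromosome 1. The mean was higher in K562 than in HEK293T at 3763 of the 4240 hotspots, and the 2 replicates of a site differed by a median of 5.08 percentage points in HEK293T and 4.11 in K562.

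At the threshold itself the choice was narrow. Just inside by the lower of the line means stood TRDMT1 with 50% in both HEK293T replicates, AEBP2 with 55.4% and 44.6%, and ZSWIM7 with 50% in both. Just outside stood CTSD with 49.5% and 50.5% in HEK293T, SLC25A36 with 54.0% and 46.0%, and GCLM with 51.7% and 48.3% in K562. Both replicates reached 50% in both lines at 2978 of the 4240 hotspots.

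With the enzyme in the nucleus or at the endoplasmic reticulum the same sites were also among the more edited ones, at lower rates. The median over hotspots was 57.2% ± 0.238 (SD, n = 2 libraries) with NES and 27.1% ± 0.824 with NLS in HEK293T, 67.6% ± 0.0562 with NES and 30.6% ± 0.172 with NLS in K562, and 42.6% ± 0.708 with ERM in HEK293T. The medians over all shared sites listed were 6.08% and 6.37% in the HEK293T NLS libraries, 7.20% and 7.28% in K562 NLS and 6.61% and 6.44% with ERM. Hotspots were also listed more often: 82.6% of them were in the HEK293T NLS table against 57.8% of the shared sites, 78.4% against 55.4% in K562 NLS and 92.3% against 50.5% with ERM. The 176 hotspots in none of these 3 tables, such as ST20-AS1, have no NLS or ERM value in poly(A) RNA here. The medians above therefore cover 3501, 3325 and 3914 of the 4240.

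**Figure D2:**
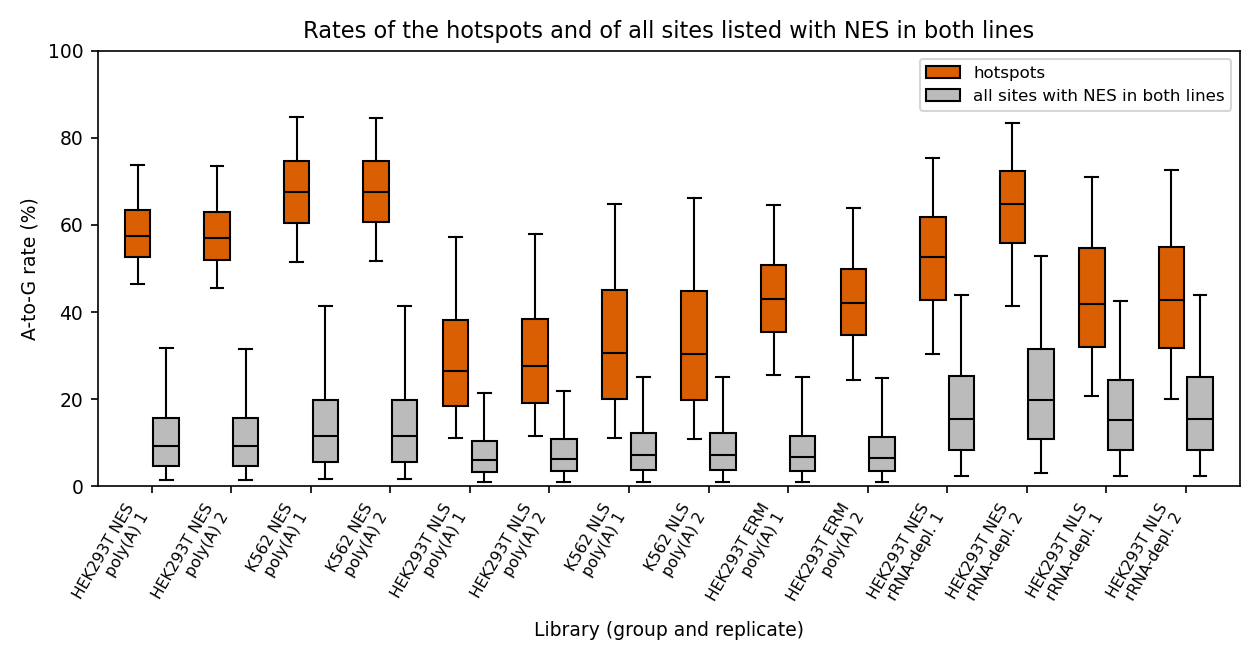
A-to-G rate (%) in each of the 14 bulk libraries for hotspots and for all sites listed with NES in both lines; boxes span the quartiles with the median as a line, and whiskers run from the 5th to the 95th percentile of listed sites. Hotspot medians lie at 57.0% and 57.4% with NES, 42.1% and 43.1% with ERM and 26.5% and 27.7% with NLS in HEK293T poly(A) RNA, and every box of hotspots lies above the box of all sites in the same library.

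The comparison with other sites of the same RNAs gave the same order. Among 1922 genes with a hotspot and at least 5 other shared sites listed with NLS in HEK293T, the hotspots of the gene had a higher median rate than its other sites in 1904 (99.1%), with medians over genes of 27.1% and 8.03%. In K562 with NLS this was so in 1842 of 1871 genes, and with ERM in 2121 of 2125 genes, where the medians were 42.6% and 8.83%.

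Among the 3037 hotspots listed in every poly(A) table, 2428 (79.9%) had the order NES above ERM above NLS in HEK293T by group means. The NLS mean was above the NES mean at 97 of them in HEK293T and at 95 in K562, and the ERM mean was above the NES mean at 112. The NES values here chose the sites, so this order is a description. At 164 hotspots the mean was 50% or more in all 5 poly(A) groups, and at 58 the rate was 50% or more in all 14 libraries.

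The ends of the NLS range show how differently single hotspots behaved. Among the hotspots listed in every poly(A) table, the lowest NLS mean of HEK293T was at MCM6, a subunit of the replicative helicase, with 3.50% and 5.76% in HEK293T and 4.32% and 7.24% in K562, against 57.8% and 59.2% with NES in HEK293T. UGP2, which makes UDP-glucose, had a mean of 5.18% with NLS in HEK293T, DDX50, an RNA helicase, 5.94%, and MGST2, a glutathione transferase, 6.25%. MELK and COPS5 followed with 6.46% and 6.53%. At the other end NKRF, a repressor of NF-kappaB target genes, had 86.4% and 86.9% with NLS in HEK293T and 84.5% and 79.0% in K562, and 78.9% and 84.2% with NES in HEK293T. FBXL14, TMEM216, MIB2 and TASOR also had NLS means of 79.7% to 82.3% in HEK293T. In MIB2 the NES replicates of HEK293T were 37.9% and 69.0%, so its place on the list rests on rates that differed widely between libraries.

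The ERM and NLS libraries were not used by the rule, and their difference was tested with limma at every site listed in both tables, on the log2 odds of editing. Of 276293 sites tested, 9.90% were called higher with ERM and 13.1% lower (Benjamini-Hochberg adjusted p under 0.05). Of the 4240 hotspots, 3421 could be tested, 493 were listed with ERM alone of the pair and 80 with NLS alone. With ERM 1545 hotspots (45.2%) were higher and 51 (1.49%) lower, and the median change was 0.97 log2 odds, with quartiles of 0.31 and 1.61, against -0.04 over all sites. Both ERM replicates lay above both NLS replicates at 2455 hotspots (71.8%) and below at 298 (8.71%), against 30.0% and 34.6% of all sites tested. Without any 1 of the 4 libraries 750 to 981 hotspots were higher and 9 to 18 lower. The amounts of the ERM and NLS enzymes were not analysed here and cannot be told apart from their location, and in bulk RNA more edited cells and more editing per cell cannot be told apart either.

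**Figure D3:**
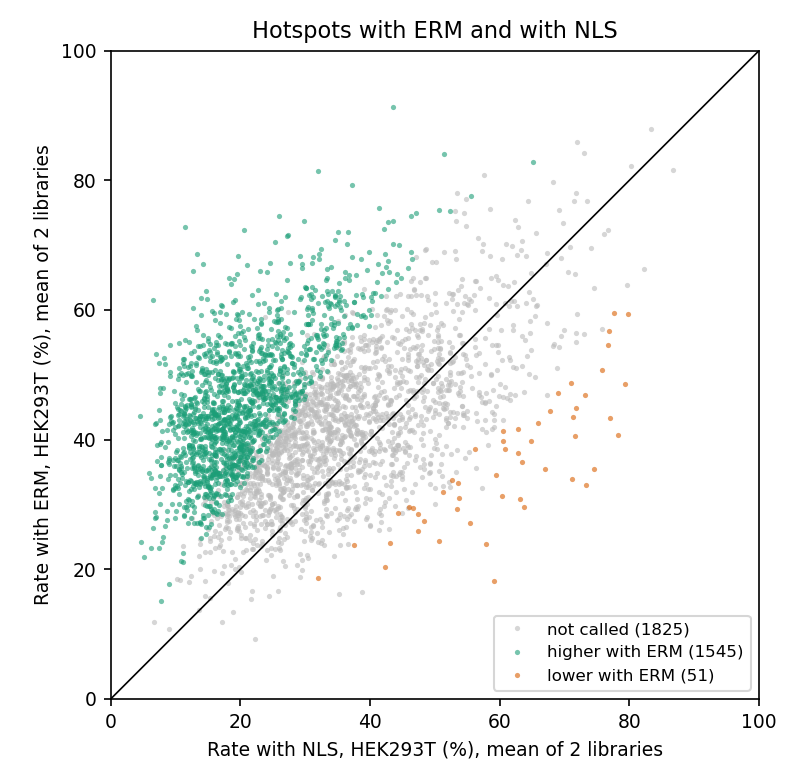
Mean rate (%) with ERM (vertical) against NLS (horizontal) in HEK293T poly(A) RNA for the 3421 hotspots listed in both tables, coloured by the limma call; the diagonal marks equal rates. The 1545 hotspots called higher with ERM lie above the diagonal and the 51 called lower lie below it.

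The largest rise with ERM was at MELK, a mitotic kinase gene, at position 36594681 of chromosome 9. Its rates were 62.2% and 60.8% with ERM and 6.14% and 6.78% with NLS in HEK293T, a change of 4.33 ± 0.26 log2 odds (SE, limma adjusted p = 0.0067). Both ERM values lay above the NES values of 55.5% and 54.1% in HEK293T. MNAT1, the assembly factor of the kinase that activates CDKs, had 70.3% and 66.9% with ERM and 10.9% and 15.6% with NLS, and 74.9% and 73.7% with NES. RNFT1, a membrane-bound ubiquitin ligase gene, had 75.4% and 70.1% against 13.2% and 9.64%. SHOC2, a scaffold of RAS signalling, had 52.5% and 53.8% against 5.62% and 8.38%. HSPA4 had 45.9% and 41.4% against 4.60% and 4.38% at its site of largest change, and all 7 of its hotspots were called higher with ERM. NFX1, a zinc finger protein gene, completed the 6, with replicates that differed more (85.0% and 97.5% against 52.0% and 35.2%), and its call was lost without NLS replicate 2 (3.51 log2 odds, limma adjusted p = 0.0700).

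The largest fall with ERM was at JUN, a subunit of the AP-1 transcription factor, at position 58783946 of chromosome 1. Its rates were 19.3% and 17.1% with ERM and 60.3% and 58.0% with NLS, a change of -2.64 ± 0.28 log2 odds (SE, limma adjusted p = 0.0067), and K562 gave 60.4% and 58.0% with NLS. With NES JUN had 54.8% and 55.5% in HEK293T, so at this site NLS and NES rates were close and ERM was low. CREBZF, a basic leucine zipper factor, had 21.7% and 26.1% with ERM and 60.1% and 55.6% with NLS. SRSF10, a splicing regulator, had 41.5% and 45.2% against 79.0% and 75.1%. MED13 of the Mediator complex, URB1, a nucleolar protein of ribosome assembly, and NUP58 of the nuclear pore were the other 3, with ERM means of 40.7%, 35.4% and 33.9% and NLS means of 78.3%, 74.6% and 71.1%. The call was lost for SRSF10 without ERM replicate 1 (adjusted p = 0.0521), for URB1 without ERM replicate 2 (0.0585), for MED13 without ERM replicate 1 (0.109) or NLS replicate 1 (0.0866), and for NUP58 without ERM replicate 2 (0.0685) or NLS replicate 1 (0.0562), all by limma.

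Within 1 gene the hotspots could differ. In ASCC3 the ERM means ran from 29.7% to 72.0% and the NLS means of HEK293T from 11.3% to 62.1%. At position 100516213 of ASCC3 the means were 62.9% with ERM and 14.7% with NLS, and at position 100881197 they were 57.7% and 62.1%. All 7 hotspots of CLTC were called higher with ERM. In NUP98, 5 of 7 were, and the pair at positions 3712654 and 3712656 of chromosome 11, 2 bases apart, had NLS means of 9.01% and 25.7% and NES means of 61.0% and 70.3% in HEK293T.

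The ERM and NLS rates were set against the NES rate of the shared sites, grouped by the lower of the 2 line means. Each median was taken over site means of the 2 libraries, for the sites that the table lists. Below 10% the median was 3.19% with ERM and 3.88% with NLS in HEK293T, and 4.18% of the sites tested were higher with ERM and 19.2% lower. From 20% to 30% the medians were 13.7% and 11.3%, with 18.4% higher and 6.33% lower. From 40% to 50%, just under the rule, they were 29.2% and 19.3%, with 37.7% higher and 2.55% lower. From 50% to 60% they were 39.6% and 24.9%, with 43.9% higher and 1.48% lower, and at 70% and above 62.1% and 44.3%, with 43.1% higher and 2.31% lower. The medians rose from each group to the next, with no step at 50%.

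**Figure D4:**
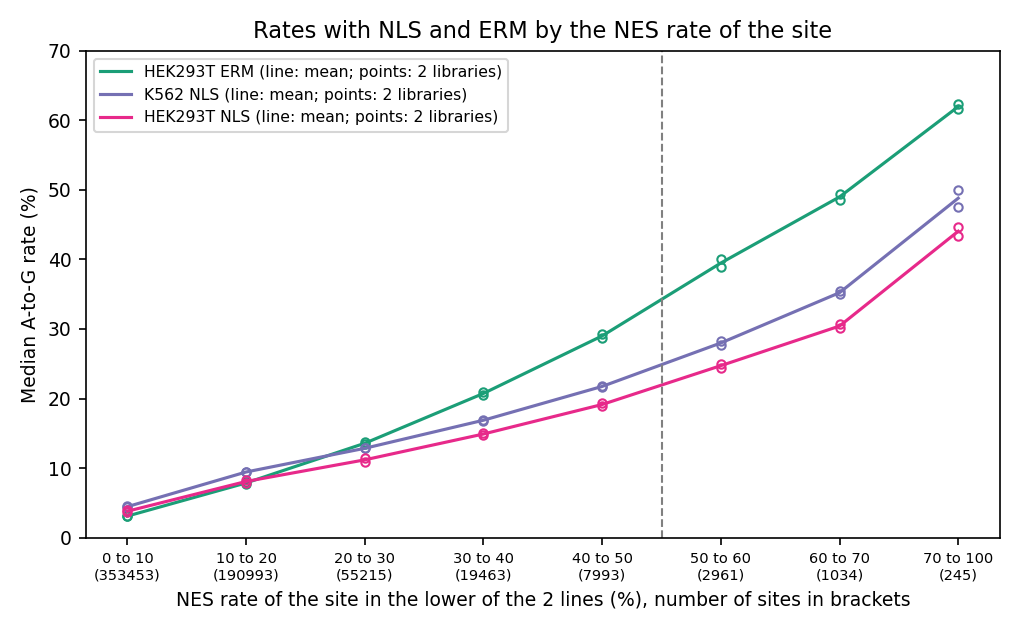
Median A-to-G rate (%) with ERM and NLS in poly(A) RNA against the NES rate of the site in the lower of the 2 lines, for those of the 631357 shared sites that each table lists, from 38.7% with ERM and 54.2% with HEK293T NLS in the lowest group to 95.1% and 88.2% in the highest; points are libraries, lines their mean, and the dashed line marks the 50% rule. The ERM library medians are 3.13% and 3.07% in the lowest group and 62.3% and 61.6% in the highest. The ERM line lies below the HEK293T NLS line in both groups under 20% and above it in every group from 20% upward.

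The cell lines were compared with NLS, since both lines' NES libraries chose the sites. This comparison uses the same HEK293T NLS libraries as the one with ERM. By limma 0 of 3087 hotspots listed in both lines were called, and 0% of 362384 sites. At an unadjusted limma p under 0.05, 380 of the 3087 hotspots were higher and 100 lower in K562, and 55754 of the 362384 sites passed in either direction. The directions were not counted over all sites at this threshold, so the split is not read as particular to hotspots. The median change was 0.20 log2 odds over hotspots and 0.13 over all sites. The K562 replicates lay above both HEK293T replicates at 1154 hotspots (37.4%) and below at 548 (17.8%), near the 31.9% and 16.1% of all sites tested. Single sites illustrate the spread. RPSAP58 had 62.1% and 68.1% in HEK293T and 29.2% and 42.1% in K562, NKRF had 86.4% and 86.9% in HEK293T and 84.5% and 79.0% in K562, and MNAT1 had 10.9% and 15.6% in HEK293T and 12.2% and 15.9% in K562. With 2 libraries a group these differences did not pass the adjustment, which does not show that the lines are alike.

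In HEK293T RNA depleted of rRNA, NES and NLS were tested in libraries that the rule did not use. The rule asked for a high NES rate in this same line and set no NLS rate. A higher rate with NES was therefore favoured by the choice of sites. Whether these libraries share cells with those of the rule is not stated. The hotspot medians were 52.5% and 64.7% in the NES libraries and 41.8% and 42.8% in the NLS libraries, over 2889 and 2189 hotspots listed. Of 201162 sites tested, 3.75% were called higher with NES and 5.49% lower. Of the 2158 hotspots tested, 356 (16.5%) were higher with NES and 6 (0.278%) lower, and the median change was 0.88 log2 odds over hotspots and -0.04 over all sites. Sites just under the rule, at 40% to 50% in the lower line, were close to this: 15.8% of those tested were higher and 0.456% lower. Their median change was 0.82 log2 odds, and from 50% to 60% the values were 15.1%, 0.407% and 0.87. Both NES replicates lay above both NLS replicates at 1255 hotspots (58.2%) and below at 98 (4.54%), against 25.7% and 29.1% of all sites tested. The NES libraries stood apart from each other, with a median difference of 12.5 percentage points between the replicates of a hotspot against 7.06 with NLS, and without NES replicate 1 only 3 hotspots were higher and without NES replicate 2 none was, so the count rests on both.

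SELENOT, a selenoprotein of the endoplasmic reticulum, had the largest rise with NES in this RNA, with 79.2% and 92.8% against 32.4% and 28.3% with NLS, a change of 3.87 ± 0.62 log2 odds (SE, limma adjusted p = 0.0021). SPINDOC had 70.5% and 78.7% against 22.5% and 16.9%. HSPA8, the constitutive cytosolic Hsp70, had 62.6% and 70.4% against 15.0% and 13.9%, and its poly(A) rates were 7.23% and 8.25% with NLS, 14.8% and 15.5% with ERM and 54.3% and 55.3% with NES in HEK293T. MNAT1 had 78.6% and 74.4% against 25.5% and 20.5%. SNRK and RNF216P1, the latter inside a pseudogene interval, completed the 6. Without NES replicate 2 the call was lost for each of these 6 (limma adjusted p = 0.0854 to 0.142), and without NES replicate 1 for 5 of them, SELENOT being the exception.

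The 6 lower hotspots were at CEBPB, RANGAP1, CAVIN1, MIDN, INTU and PGAP6, the last inside a pseudogene interval. CEBPB, a basic leucine zipper transcription factor, had 17.4% and 25.9% with NES and 60% and 77.5% with NLS in this RNA, but 49.6% and 55.5% with NES and 61.9% and 69.5% with NLS in HEK293T poly(A) RNA. RANGAP1, the GTPase activator of nuclear transport, had 35.7% and 41.4% against 76.3% and 80.9%. All 6 calls were lost without either NES library (limma adjusted p = 0.0829 to 0.231).

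Grouped by function, hotspots were found in 14 of the 15 gene lists looked up, at 0.0995% to 1.44% of the sites of a list, against 0.672% of all shared sites. The ERM counts of each list stand beside 45.2% higher and 1.49% lower over all hotspots tested, and 9.90% higher over all sites tested. Differences between lists and these shares were not tested. Cytosolic ribosomal protein mRNAs held 66 hotspots in 42 of 85 genes, or 0.559% of their sites, and 48 of the 61 tested were higher with ERM than with NLS and 0 lower. Their median was 20.6% with NLS and 41.3% with ERM in HEK293T. RPL5 had 5, RPL22 had 4 and RPLP0 had 3. In RPL5 the hotspots at positions 92834794 and 92834796 of chromosome 1, again 2 bases apart, had NES means of 58.7% and 77.2% in HEK293T. Translation factors held 47 hotspots in 23 of 50 genes, with EIF3F and EIF5 at 5 each and EEF2 at 4, and 25 of 45 tested were higher with ERM and 0 lower. Heat shock proteins and the chaperonin held 69 in 33 of 68 genes, led by HSPA4, DNAJB6 with 5 and HSP90AA1 with 4, and 33 of 63 tested were higher with ERM and 1 lower.

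The counts with ERM in the next lists also stand beside the 45.2% of all tested hotspots that were higher. Proteasome mRNAs held 30 hotspots in 19 of 46 genes (17 of 28 tested higher with ERM), mitochondrial ribosomal proteins 25 in 18 of 80 (12 of 22), nuclear-encoded respiratory chain 24 in 20 of 104 (11 of 15), solute carriers 51 in 40 of 134 (19 of 38), and hnRNP and SR proteins 23 in 13 of 33 (9 of 22, and 1 lower). Zinc finger mRNAs held 92 in 64 of 208 genes, 1.44% of their sites, with ZNF473 and ZNF689 at 5 each. Of their 62 tested hotspots 17 were higher with ERM and 0 lower, and their NLS median in HEK293T was 33.0%. Chaperones and translocon genes of the endoplasmic reticulum held 3 hotspots in 3014 sites (0.0995%), in PDIA3, HSP90B1 and P4HB, and neither of the 2 tested was called. Tubulins and actins held 4 in 1489 sites and histones 4 in 1035, including H1-2 with NES means of 77.3% and 82.5% in HEK293T. The mitochondrially encoded list held 0 sites. The list of cell cycle genes, taken by symbol, held 21 hotspots in 14 of 43 genes (6 of 17 tested higher with ERM), led by CDK5RAP1 and CDKAL1 with 3 each, which are no kinases but tRNA-modifying enzymes.

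Of 17 mRNAs known to carry sites of the endogenous ADAR enzymes and present here, 7 held 14 hotspots (0.508% of their sites). CCNI, a cyclin-like gene, had 5, with NLS means of 14.3% to 21.9% and ERM means of 34.1% to 52.0%. COPA, AZIN1 and EIF2AK2 had 2 each. Rates of the GFP control libraries at these sites were not analysed here. A genomic DNA table of K562 cells with NLS and with the GFP control, 1 library each, listed 0 of the 4240 hotspots and 24 of the 631357 shared sites among its 878631 positions. Genomic DNA of NES cells was not analysed here.

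Single cells gave values that bulk RNA averages. In 10 HEK293T cells with NES, 1258 to 3050 hotspots were listed per cell (median 1914.5), and 535 were listed in all 10 cells and 429 in none. Per cell, 29.7% to 71.9% of the hotspots were listed, against 11.4% to 36.5% of all shared sites. The median hotspot rate of a cell was 25.8% in the lowest cell, 74.2% in the middle of the 10 and 98.5% in the highest, whereas the median over all shared sites listed was 1.67% to 17.8%. Between 19.5% and 59.5% of the hotspots listed in a cell had a rate of 90% or more, and 2.82% to 33.9% had a rate under 10%. Over all shared sites listed in a cell, these shares were 4.58% to 23.3% and 40.8% to 66.4%. The depth behind each value is unknown, and with few RNA molecules of a gene in a cell a rate near 0% or 100% may rest on few of them. Individual hotspots differed in their spread over the cells: INTS12 lay at 58.2% in the lowest cell and at 100% in the middle and highest, AEN, a nuclease gene, at 51.9%, 99.4% and 100%, RPLP0 (position 120199120 of chromosome 12) at 1.01%, 84.2% and 98.5%, and SNX3, a sorting nexin, at 29.8%, 76.5% and 99.7%.

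**Figure D5:**
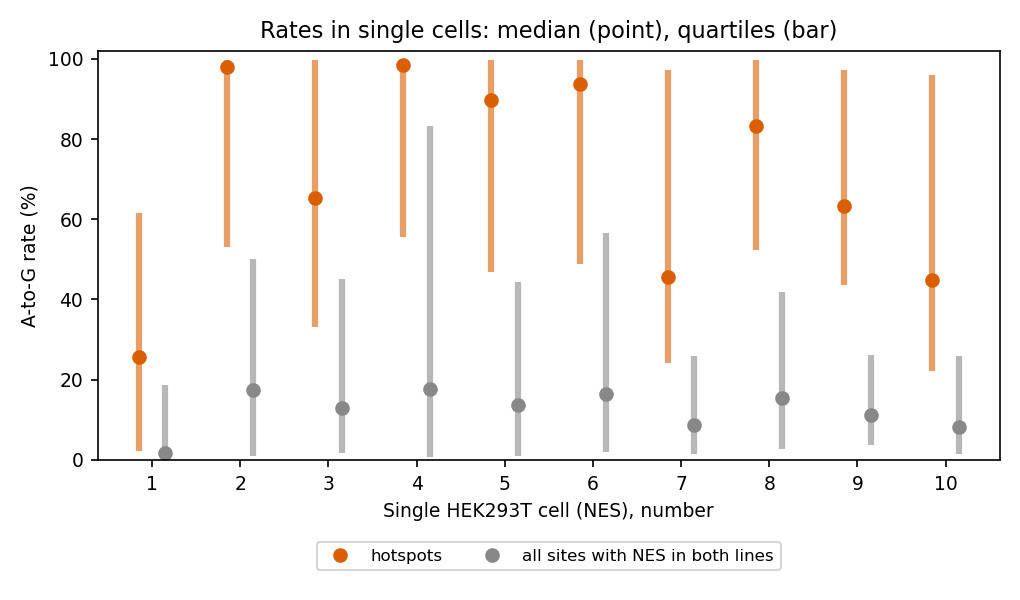
A-to-G rate (%) in each of 10 single HEK293T cells with NES, for hotspots and for all sites listed with NES in both lines; points are medians over listed sites and bars span the quartiles. Hotspot medians run from 25.8% to 98.5% and in every cell lie above the median of all sites, which stays between 1.67% and 17.8%.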

How the data were processed

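RNA of GFP-positive sorted cells was sequenced after poly(A) selection or rRNA depletion with a stranded kit, and single cells with a SMART-Seq kit. Per the submitters' processing notes, cutadapt, STAR, Bowtie2 and SAMtools were used with the hg38 genome, and no versions are given for these libraries. The steps of site calling are not stated there. The deposited fraction values are mutation rates of a site in 1 replicate, printed here as percent. A p-value adjusted by the authors stands beside each rate (what it was tested against is not stated) and was under 0.05 in both replicates at every listed site of the 7 bulk tables. The count values of the K562 genomic DNA table are reads per position as deposited, and only its positions were used. Of the columns of values deposited for the whole series, 37 were not used.

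Sites were matched by chromosome, position and strand. Rates were compared as log2((rate + 0.01) / (1 - rate + 0.01)) by limma 3.58.1 (R 4.3.3), using a variance trend, two-sided, in a separate fit per comparison of 2 against 2 libraries, with Benjamini-Hochberg adjustment over all sites listed in both groups. An exact permutation test of 2 against 2 libraries cannot go below 0.333, so none was used. Repeated rows of single-cell tables were identical and counted once. The fits were also run on simulated rates, and the outcome is not reported here. Gene classes and pseudogene intervals came from RefSeq (GRCh38.p14), in which 2614 of the 2615 symbols were found, older names included, and windows from RefSeq promoters were folded with ViennaRNA 2.7.2. Tables were joined in Python 3.11.15 using pandas 2.3.3 and plotted by matplotlib 3.10.9.

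The members and lists were chosen with earlier results of these data known. Genes were named as the 12 hotspots of highest NES mean, the 10 genes with most hotspots, the 6 largest called changes per direction and comparison with no overlap of replicates, the 3 sites on either side of the threshold, up to 3 genes per list and, of hotspots listed in every poly(A) table, the 6 lowest and 6 highest NLS means in HEK293T, at most 1 site a gene. Lists go by symbol, and EEF1AKMT and EIF2AK genes, HSPG2, HSPBP1, HSPBAP1, other prefix matches that are no ribosomal proteins, and pseudogenes were left out of the ribosomal, translation and heat shock lists. Other sites named to show the spread between lines, within a gene or between cells, and the 38 sites with sequence, were chosen after their values were seen.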

Additional observations from a re-analysis of the deposited data

Results flagged for a closer look

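Among 14 results over the 10 single cells, 4 had 1 cell farther from the others than Dixon's 95% limit. For normally distributed values chance passes that limit in about 1 of 20. Percentages are bounded at both ends, so how often chance passes it here is unknown. In cell 1, 33.9% of the listed hotspots had a rate under 10%, the highest share of the 10 cells, and RPLP0 had 1.01%, its lowest value. RPL13AP5 had 29.8% in cell 3 and INTS12 had 58.2% in cell 10, each the lowest of the 10 cells.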

How the results depend on the processing

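Counts at other thresholds of the rule were 12233 hotspots at 40% and 1279 at 60%, against 4240 at 50%. Without 1 of the 4 NES libraries the number was 4201 to 4701, and 4155 lay outside pseudogene intervals. For ERM against NLS, leaving out 1 library gave 750 to 981 hotspots higher with ERM and 9 to 18 lower, against 1545 and 51. With only the 1279 sites at 60%, 510 were higher (48.1%) and 16 lower (1.51%) of 1061 tested, beside 9.90% and 13.1% of all sites tested. For NES against NLS in rRNA-depleted RNA, leaving out 1 library gave 0 to 139 higher and 0 to 5 lower, against 356 and 6; centring each library gave 544 and 10, and the sites at 60% gave 134 higher and 0 lower. K562 against HEK293T with NLS gave 0 calls under every alternative run. In that comparison and in the others no direction reversed. Replicate numbers did not pair the libraries (correlations of deviations 0.003, 0.001 and 0.018), and a fit with the replicate number as a block gave 1556 higher and 48 lower with ERM, and 571 higher and 15 lower with NES in rRNA-depleted RNA. With the block, 10.0% of all sites tested were higher and 13.0% lower with ERM. With NES in rRNA-depleted RNA these shares were 6.54% and 8.47%. At 60% the median rate was 32.8% with NLS and 51.1% with ERM in HEK293T, 37.9% with NLS in K562 and 47.2% with NLS in rRNA-depleted RNA. The K562 NLS median was 30.8% over hotspots listed in every table and 30.4% outside pseudogene intervals. T stood before the edited A at 90% of the 10 sites with sequence at 60%, and an adenosine was listed 2 bases after 24.3% of sites at 60%. Of the recomputed values of named sites, 199 kept their direction and side of the threshold and 41 lost the call, mostly without 1 library; INTU lost it without the variance trend (limma adjusted p = 0.0502) and PGAP6 with an offset of 0.05 (limma adjusted p = 0.0546). The causes were not tested. Without read counts, depth limits every rate to an unknown degree.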
